A study of Mus musculus with 12 samples.

Results

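The genes described here are all 998 rows of the mRNA table that the authors deposited for day 4, with no further choice among them. Of these, 499 carry a ratio above 1 and 499 a ratio below 1. Days 2, 4 and 8 have 1 such table each, which together hold 2994 rows and 2091 distinct gene symbols. The day 4 ratios compare 2 mRNA libraries of AKR-2B cells, an established line of mouse fibroblasts. Both cultures were grown as colonies in soft agar, a medium in which cells grow without attachment, and were recovered after 4 days. One received 25 ng/mL TGFβ and the other received vehicle, and no other treatment or genotype is given for either. Each condition has 1 library, so no ratio has a replicate error and no p-value is given for any gene.

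TGFβ is a secreted ligand that signals through a pair of serine/threonine kinase receptors to SMAD transcription factors, and in parallel through MAP kinases and small GTPases. In fibroblasts it is known for inducing matrix proteins, protease inhibitors and contractile proteins, and for allowing some fibroblast lines to form colonies without attachment. Its pathway also switches on its own inhibitors, and it is related to the BMP pathway, which uses other receptors and SMADs.

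The header of the table names the day but not which library was divided by which. TGFβ is taken here as the numerator, since most known targets of its pathway in the table are then above 1. Of 13 listed, 11 are above 1, among them Pmepa1 and Skil, while Timp3 and Itgb6 are below. Also below are 5 of 6 listed contractile genes of smooth muscle, which TGFβ is known to induce in many fibroblasts. Read the other way, every side given here inverts, and the miRNA libraries described further on, whose labels do give the treatment, did not settle it. Almost every ratio (997 of 998, 99.9%) equals, in lowest terms, 1 odd whole number over another. That is the form of 2 read counts with 0.5 added to each and no scaling for library size. The larger number then gives the least reads in the larger library, since a common factor may have been divided out. A ratio that is itself an odd whole number, or the reciprocal of one, has the form of 0 reads in 1 library, and its size then depends on the added 0.5. The remaining row, A130040M12Rik, had no such form at 7.23 in the authors' deposited table and has no read support here.

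Read support divided the table. At least 20 reads in the larger library stood behind 392 of the 997 rows, 211 above 1 and 181 below, so that 53.8% of them lay above 1 against 50% of all rows. These are called well supported below. The least reads implied were under 5 for 191 rows above 1 and 124 below. As a description of counting error only, an exact binomial (Clopper-Pearson) 95% interval was taken for the ratio of reads at the least reads implied. It left out a ratio of 1 for 614 of 997 rows (61.6%), and for every well supported row. The same held for 222 of the 290 rows with least reads of 5 to 19, and for none of the 315 with fewer. Every ratio in the table is at least 5 or at least 7-fold lower. The results for the well supported rows and for the 315 therefore follow from their read numbers, and do not check the limit of 20 reads. These intervals take no account of the choice of extreme ratios for the table, of library size, or of reads that are copies of 1 molecule. The form of 0 reads was taken by 273 ratios above 1 and 298 below, but by 17 and 19 of the well supported ones.

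The well supported genes above 1 also had the higher least reads. Their median was 514 in the larger library, against 120 for those below 1. The larger library is 1 of the 2 for genes above 1 and the other for genes below. The depths of the 2 are unknown, so a part of depth in this gap was not tested. At least 1000 reads stood behind 74 genes above 1 and 27 below. The table starts at a ratio of 5 on the upper side, where 82 rows are tied, and at 7-fold lower on the other side, where 48 are tied. A gene outside the table is therefore not shown to be unchanged.

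**Figure D1:**
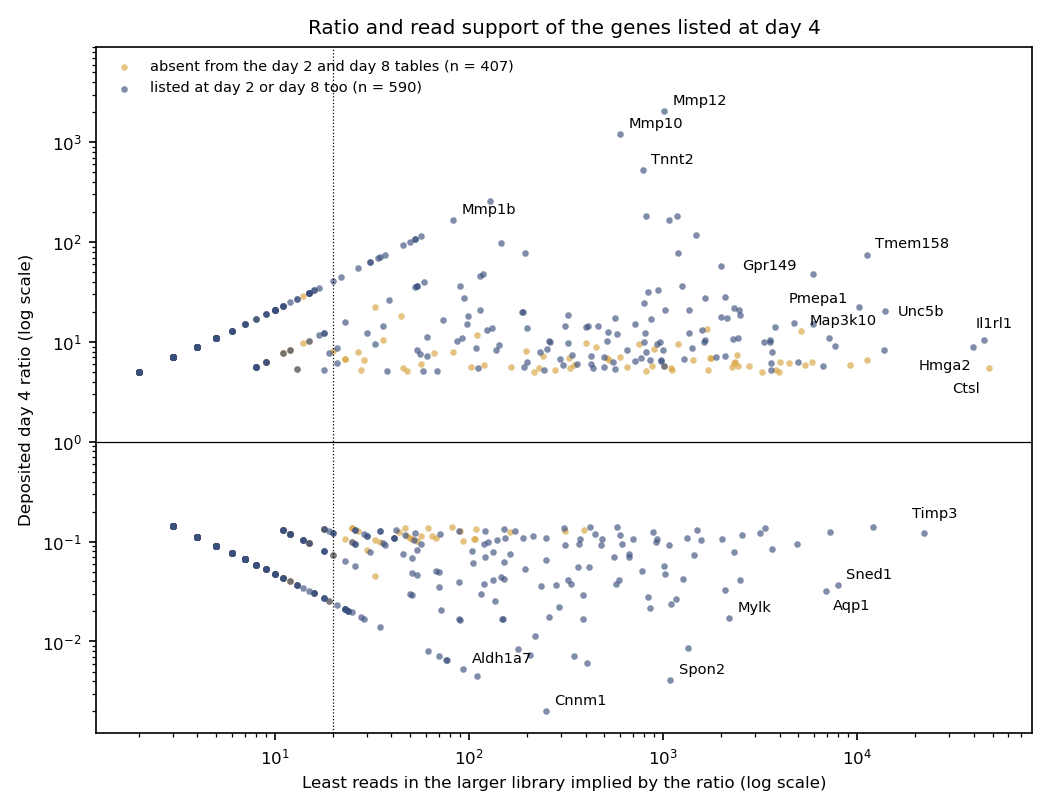
Each point is 1 of the 997 day 4 genes with a whole-number form. The horizontal axis is the least number of reads in the larger library (log scale), the vertical axis the deposited ratio (log scale), the solid line a ratio of 1 and the dotted line 20 reads. Yellow points, the 407 genes absent from the other days' tables, lie near the inner edges of the table where reads are many, and the diagonal arms are ratios with the form of 0 reads in 1 library.

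By biotype in the RefSeq gene table, 203 of the 211 well supported genes above 1 and 164 of the 181 below were protein coding, with 5 and 13 long noncoding RNAs. Symbols matched as given for 904 rows and as synonyms for 84, and 10 were unmatched. The rows were grouped with 51 lists of genes by function, which held 559 of the 998 rows and 229 of the 392 well supported ones. More members lay above 1 than below in 30 lists and fewer in 15. The counts of a list are read against the 50% of all rows and 53.8% of well supported rows that lie above 1. The lists differ in size and were not tested. The table holds 875 of 21900 RefSeq protein-coding genes (4%), against which the share of a list that is listed can be read.

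**Figure D2:**
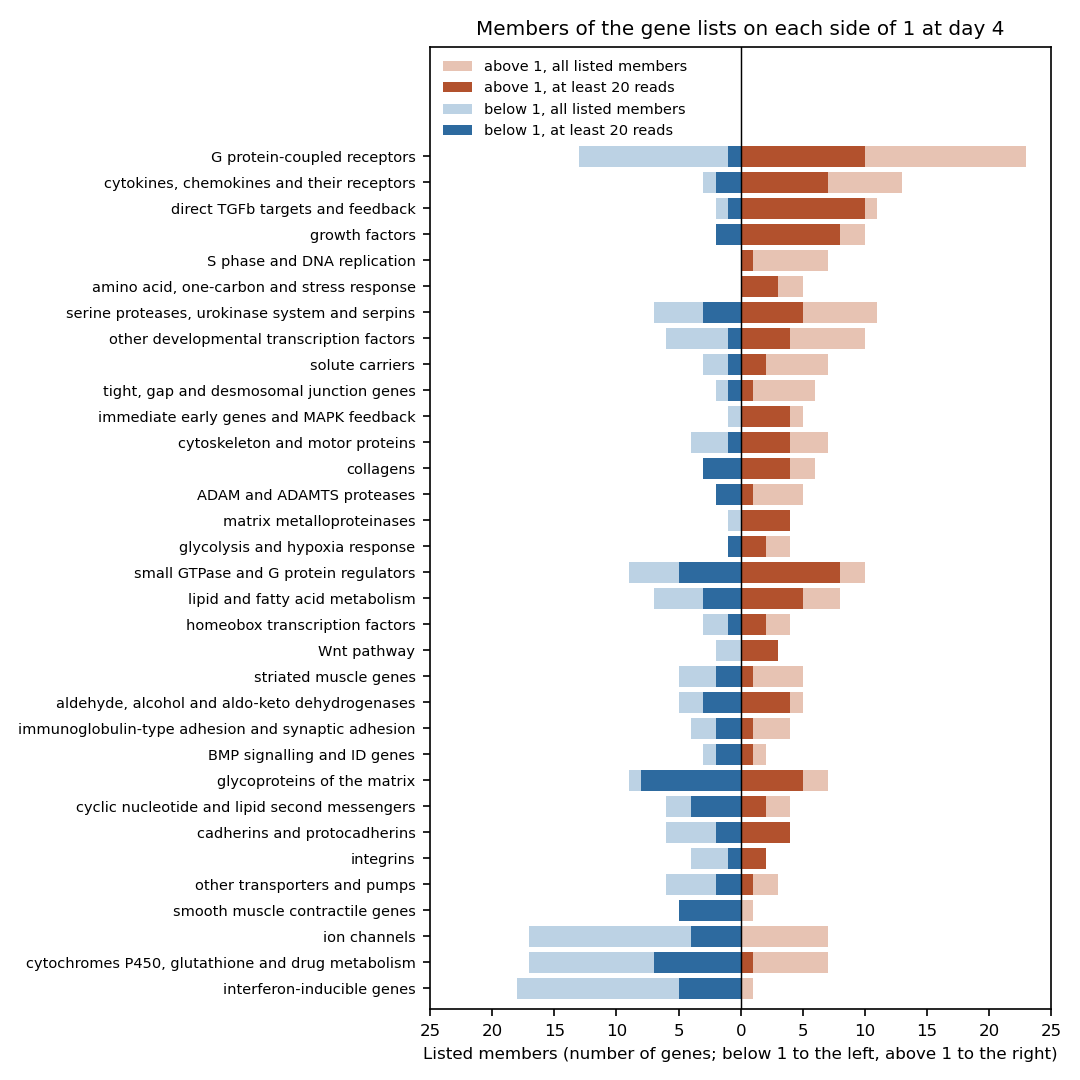
Bars count the listed members of each gene list with 5 or more of them (number of genes), to the right of 0 for ratios above 1 and to the left for ratios below 1. Dark bars, drawn over the light ones, count the members with at least 20 reads in the larger library. To the right the longest bars are those of G protein-coupled receptors (23, from a list of 2416) and cytokines (13, from a list of 204). Direct TGFβ targets and serine proteases follow (11 each). To the left they are those of interferon-inducible genes (18), drug metabolism and ion channels (17 each), mostly light.

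The list of direct TGFβ targets and feedback genes had 13 of 43 members in the table, 11 above 1 and 2 below, and 10 and 1 among the well supported. The direction of the table was read from such genes, so their side is not a result. By reads the first was Hmga2 (10:120361268-120476469), a chromatin protein of growing mesenchyme, with at least 39509 reads against 4437 and a ratio of 8.90 in the authors' deposited table. Pmepa1 (2:173224458-173276731), which holds back SMAD signalling, had at least 10309 reads against 465, a ratio of 22.1 in the authors' deposited table. The SMAD corepressor Skil had at least 2268 reads against 402, and Ctgf, a matricellular protein, at least 3644 against 461. Fstl3, a secreted binder of activins, had at least 200 reads against 14 (13.8 in the authors' deposited table). On the other side lay Timp3 (10:86300412-86349505), an inhibitor of metalloproteinases held in the matrix, with at least 22188 reads against 2729, 8.13-fold lower in the authors' deposited table. Timp3 lies inside the neuronal gene Syn3 (10:86048746-86498926), itself 7.79-fold lower in the authors' deposited table, and reads of the overlap can be counted to either. The library kit named in the labels is one that does not mark strand.

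Of 41 genes of the related BMP pathway 5 were listed, 2 above and 3 below. The receptor gene Bmpr1b lay above 1 with at least 59 reads against 1 (39.7 in the authors' deposited table). The BMP-responsive SMAD gene Smad9 had at least 309 reads in the larger library against 42 (7.28-fold lower in the authors' deposited table) and Atoh8, a helix-loop-helix factor, at least 122 against 8 (14.4-fold lower). No ID gene was in the day 4 table.

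Matrix metalloproteinases, which cleave collagens and other matrix proteins, held the 2 highest ratios of the table. Mmp12 (9:7344397-7360461), macrophage elastase, had the form of at least 1020 reads against 0, and Mmp10 (9:7502342-7510242), stromelysin-2, of at least 602 against 0. Their ratios of 2041 and 1205 in the authors' deposited table thus depend on the added 0.5 if the lower library had 0 reads. A common factor would instead put a few reads there and more in the other library. The collagenase genes Mmp13 (9:7272514-7283333) and Mmp1b (9:7367670-7388026) had at least 147 reads against 1 and at least 83 against 0. These 4 genes were above 1 in all 3 tables, and Mmp13, Mmp12 and Mmp1b stand next to each other in the RefSeq order of protein-coding genes on chromosome 9. The fifth listed member, Mmp15, lay below 1 on at least 5 reads. In all, 5 of 23 members of the list were listed.

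Because these 4 genes lay on 1 side at each day, their promoter windows are shown, from 250 bases before to 50 bases after the start of the gene, from RefSeq on GRCm38.p6. They were searched on both strands for TGANTCA, a form of the AP-1 site, which 7.08% of the 17492 promoter windows of protein-coding genes hold. Capitals mark the match. Mmp10, Mmp13 and Mmp1b have 1 match each, and Mmp12 has none, which says only that these letters are not in this window.
Mmp10 (chr9:7502092-7502391, plus strand): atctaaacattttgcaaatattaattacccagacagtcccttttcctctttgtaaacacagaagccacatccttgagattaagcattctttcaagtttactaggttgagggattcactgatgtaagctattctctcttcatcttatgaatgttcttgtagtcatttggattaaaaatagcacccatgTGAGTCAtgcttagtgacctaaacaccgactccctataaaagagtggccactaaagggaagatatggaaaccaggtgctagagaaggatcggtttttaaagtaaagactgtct
Mmp13 (chr9:7272264-7272563, plus strand): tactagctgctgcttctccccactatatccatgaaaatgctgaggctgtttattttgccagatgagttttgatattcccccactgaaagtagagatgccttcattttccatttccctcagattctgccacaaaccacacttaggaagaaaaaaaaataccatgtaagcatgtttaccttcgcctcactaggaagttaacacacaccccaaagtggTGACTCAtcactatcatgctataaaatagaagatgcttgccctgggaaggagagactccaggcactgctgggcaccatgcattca
Mmp1b (chr9:7387977-7388276, minus strand): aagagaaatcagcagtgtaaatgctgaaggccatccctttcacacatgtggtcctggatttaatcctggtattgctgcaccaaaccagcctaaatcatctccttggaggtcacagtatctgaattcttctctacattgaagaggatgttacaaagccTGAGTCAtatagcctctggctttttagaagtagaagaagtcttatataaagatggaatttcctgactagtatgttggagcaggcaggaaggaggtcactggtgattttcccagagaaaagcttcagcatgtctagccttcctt
Mmp12 (chr9:7344147-7344446, plus strand): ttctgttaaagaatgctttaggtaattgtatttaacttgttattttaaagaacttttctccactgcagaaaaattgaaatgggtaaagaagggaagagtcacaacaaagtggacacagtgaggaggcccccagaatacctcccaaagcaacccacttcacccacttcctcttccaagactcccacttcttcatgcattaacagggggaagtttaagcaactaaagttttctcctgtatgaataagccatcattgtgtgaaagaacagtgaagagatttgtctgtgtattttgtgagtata
A match is a description of the sequence, and binding was not measured. Only 145 of the 203 well supported protein-coding genes above 1 and 117 of the 164 below had a window. TGANTCA was in 21 of those 145 (14.5%) and in 13 of those 117 (11.1%), so listed genes on both sides hold it. Genes without a window are left out of these shares, which were not tested.

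Other proteases lay on both sides. Ctsl (13:64361890-64370772), the lysosomal cysteine protease cathepsin L, had the most reads among the 997 rows with a whole-number form, at least 48211 against 8762. Its ratio was 5.50 in the authors' deposited table (counting interval 5.38 to 5.63), near the edge, and it was listed at no other day. The urokinase gene Plau (14:20836662-20843388) had at least 2338 reads against 107, a ratio of 21.8 in the authors' deposited table. The urokinase receptor gene Plaur (7:24460937-24475970) had at least 1752 against 251 and was absent from the other days. Urokinase and its receptor were thus both above 1 at day 4, and of these Plau alone was listed at another day. Ctsw, a cathepsin known from cytotoxic lymphocytes, had at least 720 reads against 47 (15.2 in the authors' deposited table). Below 1 were thrombomodulin, Thbd, a surface cofactor that turns thrombin to an anticoagulant, with at least 3155 reads in the larger library against 386 (8.16-fold lower in the authors' deposited table), and the thrombin inhibitor Serpind1 with at least 47 against 6. Adam12, a membrane metalloprotease, lay above 1 with at least 7218 reads against 664. By the authors' deposited table the secreted ADAMTS-like proteins Adamtsl4 and Adamtsl1 were lower, 13.7-fold and 8.76-fold.

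Matrix genes were listed on both sides. Of 44 collagens 9 were listed, 6 above 1 and 3 below. Above 1 were Col7a1, of anchoring fibrils, with at least 2503 reads against 134 (18.6 in the authors' deposited table), the fibrillar Col27a1 with at least 723 against 112, and the basement membrane chains Col4a4 and Col4a3. Those 2 chains are neighbours on chromosome 1 that share a start region (82448419-82587034 and 82586921-82722059), with 5.51 and 5.24 in the authors' deposited table. Below 1 were Col6a2, of microfibrils, with at least 12108 reads in the larger library against 1712 (7.07-fold lower in the authors' deposited table), another basement membrane chain, Col4a6, and the membrane collagen Col23a1. Of the 18 fibroblast markers, which hold Col1a1, Col1a2, Col3a1, Fn1 and Vim, 0 were listed, so the table cannot check the labelled cell type.

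Enzymes that build hyaluronan and sulfated proteoglycans were listed above 1 only, 4 of 38 list members. They were Has2 (15:56665627-56694546), a hyaluronan synthase, with at least 1645 reads against 59 (27.7 in the authors' deposited table), the heparan sulfate polymerase Ext1 with at least 5855 against 932, and the chondroitin sulfotransferases Chst11 and Chst3 with at least 971 against 97 and 98 against 6. The collagen crosslinking enzyme Lox also lay above 1, with at least 3845 reads against 733 (5.24 in the authors' deposited table). The small leucine-rich proteoglycans of the same list lay below 1: Ogn was 30.3-fold, Aspn 46.5-fold and Prelp 33.3-fold lower in the authors' deposited table, on at least 2103, 860 and 116 reads in the larger library. These 3 core protein genes were below 1 in all 3 tables. Podn, of the same protein family but outside the list and picked out after its value was seen, was 26.8-fold lower in the authors' deposited table.

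Of 72 glycoproteins of the matrix 16 were listed, 7 above 1 and 9 below, and 5 and 8 among the well supported. Above 1 lay Fbln2, an elastic fibre protein, with at least 5932 reads against 393 (15.1 in the authors' deposited table), tenascin Tnc with at least 2456 against 118, Wisp1, a relative of Ctgf, with at least 2429 against 219, and the laminin chain Lamb3 with at least 196 reads against 2. Below 1 lay Spon2 (5:33213518-33218254), a secreted spondin, with at least 1094 reads against 4 (243-fold lower in the authors' deposited table). The calcification inhibitor Mgp followed with at least 7311 against 905, then Thbs3, Nov, which like Wisp1 is a relative of Ctgf, Tnxb and the microfibril proteins Mfap2 and Mfap4. Comp, of cartilage and tendon, had at least 51 reads against 5 and was below 1 at day 4 alone. Sned1, a further matrix protein outside the list, had at least 7979 reads against 291 (27.4-fold lower in the authors' deposited table).

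Contractile genes of smooth muscle, which TGFβ is known to induce in many fibroblasts, lay below 1. Of 6 listed members out of 26, 5 were below, each with at least 20 reads, and Actc1 was above on at least 2 reads. Acta2 (19:34240336-34255585), smooth muscle actin, had at least 2319 reads in the larger library against 183 (12.6-fold lower in the authors' deposited table). The myosin kinase gene Mylk (16:34745199-35002436) had at least 2190 against 37 (58.4-fold lower in the authors' deposited table) and the myosin light chain gene Myl9 (2:156775408-156781657) at least 282 against 10. The actin-bundling Synpo2 had at least 164 against 12 and Actg2 at least 30 against 3. Actg2 was missing at day 2, and the other 4 were below 1 at all 3 days. Serum response factor binds CArG boxes in promoters of such genes. An exact CArG box (CC and GG with only A or T between) was found in 1.54% of all promoter windows. It was in that of Myl9, where capitals mark it, and not in the windows of Acta2 or Mylk used here:
Myl9 (chr2:156775214-156775513, plus strand): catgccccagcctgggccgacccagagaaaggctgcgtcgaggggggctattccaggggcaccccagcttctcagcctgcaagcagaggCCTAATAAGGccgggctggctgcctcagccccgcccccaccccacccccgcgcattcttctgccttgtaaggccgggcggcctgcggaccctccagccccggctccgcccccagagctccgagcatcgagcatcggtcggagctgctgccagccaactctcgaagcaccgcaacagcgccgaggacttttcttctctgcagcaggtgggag
The search took no inexact match and 1 start per gene. The Acta2 window does hold near forms, ccctatatgg and ccttgtttgg, with a C or G among the middle bases. The Mylk window (chr16:34784700-34784999) lies inside the gene span given above and not at its outer start. Absence of an exact box thus does not show that Acta2 or Mylk lacks such sites.

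Of 56 genes of striated muscle 10 were listed, 5 above 1 and 5 below, but only 3 were well supported. Cardiac troponin T, Tnnt2 (1:135836315-135852268), had at least 791 reads against 1, a ratio of 528 in the authors' deposited table and the third highest of the well supported ratios. The sarcomere protein gene Actn2 was below 1 on at least 20 reads. Tubulins lay above 1 and were listed at day 4 alone: Tubb6 with at least 3958 reads against 788 (5.02 in the authors' deposited table) and Tubb3 with at least 46 against 8. The kinesin Kif26b had at least 821 reads against 103. The intermediate filament gene Prph lay below 1 with at least 24 reads against 0.

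Secreted growth factors were mostly above 1. Of 83 list members 12 were listed, 10 above and 2 below, and 8 and 2 among the well supported. Vegfa, the main angiogenic factor, had at least 3618 reads against 689 (5.25 in the authors' deposited table), Hbegf, a ligand of the EGF receptor, at least 1410 against 160, Fgf5 at least 1358 against 109 and Pdgfa, a mitogen for fibroblasts, at least 1006 against 120. The hepatocyte growth factor gene Hgf had at least 323 reads against 17 and Igf1 at least 39 against 1 (26.3 in the authors' deposited table). The 2 below 1 were pleiotrophin, Ptn, a heparin-binding factor, at least 324 reads against 13 (24.0-fold lower in the authors' deposited table), and the neuregulin Nrg2. Pappa2, which frees IGF from its binding proteins, was 163-fold lower in the authors' deposited table with at least 408 reads against 2. Among receptors and binding proteins, Igfbp7 and the GDNF coreceptor Gfra1 lay above 1 with at least 3617 reads against 590 and at least 2002 against 113.

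Of 204 cytokines, chemokines and their receptors 16 were listed, 13 above 1 and 3 below, and 7 and 2 among the well supported. Il1rl1 (1:40404864-40465418), which encodes the IL-33 receptor and a soluble decoy form, had at least 45378 reads against 4374, second to Ctsl among rows with a whole-number form (10.4 in the authors' deposited table). The TWEAK receptor gene Tnfrsf12a had at least 4455 reads against 720 and the monocyte chemoattractant Ccl2 at least 1429 against 216, and neither was listed at another day. Il34, a ligand of the CSF1 receptor, was also listed at day 4 alone, at least 103 reads against 18 (5.59 in the authors' deposited table). The chemokine receptor gene Cxcr6 and the death-domain receptor gene Tnfrsf21 were above 1 at all 3 days. Below 1 were Flt3l, a growth factor of blood progenitors, at least 70 against 3, and Tnfrsf14, at least 35 against 4. The death receptor gene Fas, outside the list and next to Acta2 on chromosome 19, was 27.9-fold lower in the authors' deposited table with at least 237 reads against 8.

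Of 106 interferon-inducible genes 19 were listed, 18 of them below 1, yet only 5 were well supported. Those were Ifi27l2a (12:103433873-103443680) with at least 220 reads against 2 (88.2-fold lower in the authors' deposited table), Ifi44 with at least 90 against 1, the guanylate-binding protein gene Gbp2 with at least 71 against 8, the immunity GTPase gene Igtp with at least 24 against 0, and Tap1, which carries peptides to MHC class I, with at least 25 against 3. The other 13 below 1, among them Oasl2, Usp18, Irgm2, Psmb9 and 5 further Gbp genes, had forms of 4 to 14 reads, and Ifitm7 lay above 1 on at least 2. Of 22 complement genes 4 were listed. Of these 3 lay below 1, among them C3, 24.3-fold lower, and C1s, 23.5-fold lower by the authors' deposited table. Hc lay above 1 on at least 6 reads. Ciita, the master regulator of MHC class II genes, lay below 1 at day 4 alone with at least 33 reads against 3.

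G protein-coupled receptors had the most listed members of the functional lists, 23 above 1 and 13 below, of which 10 and 1 were well supported. The list itself is long: 36 of its 2416 members were listed, a smaller share than the 4% of all protein-coding genes. The thrombin receptor gene F2r (13:95601780-95618466) had at least 11316 reads against 1708 (6.62 in the authors' deposited table) and was listed at day 4 alone. Its neighbour F2rl1 (13:95511718-95525240), a receptor cleaved by trypsin-like proteases, had at least 2003 against 34 (58.1 in the authors' deposited table) and was above 1 at all 3 days. The orphan receptor gene Gpr149 had at least 5965 reads against 125 (47.5 in the authors' deposited table), and Lgr6, a receptor for R-spondins, at least 1023 against 48. The α1-adrenergic receptor gene Adra1b lay below 1 with at least 26 against 1. Vipr2, a receptor of vasoactive intestinal peptide that the list's patterns missed, was 141-fold lower in the authors' deposited table with at least 70 reads against 0. Olfr1033 is an olfactory receptor gene by name, and it had at least 2099 reads against 288.

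Of 77 receptors and ligands of axon guidance 3 were listed, all above 1, a share close to the 4% of all protein-coding genes. Unc5b (10:60762594-60831581), a netrin receptor, had at least 13919 reads against 687 (20.2 in the authors' deposited table), Sema7a, a membrane-anchored semaphorin, at least 2134 against 122, and the netrin Ntn4 at least 57 against 9. Adhesion genes divided. Integrin β3, Itgb3 (11:104608000-104670476), had at least 4732 reads against 305 (15.5 in the authors' deposited table) and the collagen-binding Itga2 at least 114 against 5, while another collagen-binding chain, Itga10, was 9.45-fold lower in the authors' deposited table on at least 2018 reads. Cdh6 had at least 1177 reads against 6 (181 in the authors' deposited table), Cdh10 at least 46 against 0 and the endothelial Cdh5 at least 31 against 0. The giant cadherin gene Dchs1 lay below 1 with at least 152 against 6.

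Inside the cell, the dual-specificity phosphatases that switch off MAP kinases were above 1. Dusp4 had at least 2289 reads against 213, Dusp9 at least 1250 against 34 (36.2 in the authors' deposited table), and Dusp5 and Dusp8 at least 120 and 112 against 20 each. Of 68 genes of the Wnt pathway 5 were listed, 3 above 1 and 2 below. The ligand gene Wnt9a and the inhibitor gene Apcdd1 were above 1 at day 4 alone (8.06 and 7.21 in the authors' deposited table). Rnf43 and Fzd9 were below 1 at day 4 alone, on at least 5 and 4 reads. Regulators of small GTPases and G proteins had 19 of 275 members listed, 8 above and 5 below among the well supported. They were led by Dock8, an activator of Cdc42, with at least 2101 reads against 74 (28.2 in the authors' deposited table). The list's pattern also takes pleckstrin homology proteins such as Plekha4, 26.8-fold lower in the authors' deposited table. In second messenger signalling the cGMP-dependent kinase Prkg2 was above 1 with at least 6659 reads against 1153. The calcium-dependent phosphodiesterase Pde1b had at least 1203 against 126. The natriuretic peptide receptor gene Npr1, which makes cGMP, was below 1 with at least 51 against 2.

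Among transcription factors, Sox9 (11:112782210-112787757), which directs cartilage formation, had at least 3770 reads against 269 (13.99 in the authors' deposited table), Prdm1 at least 1871 against 265 and the homeobox gene Lhx1 at least 936 against 98. The Ikaros relatives Ikzf4 and Ikzf2 were below 1, with at least 111 reads against 0 and at least 90 against 11. Of other cartilage, bone and tendon markers, Comp was below 1 and Sp7 above on at least 3 reads. With Sox9 these were the only 3 of 28 such markers in the table.

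Enzymes that handle aldehydes and retinoids lay on both sides. Rdh10, which makes retinaldehyde from retinol, had at least 4038 reads against 644 (6.27 in the authors' deposited table), and the folate enzyme gene Aldh1l1 at least 53 against 0. Below 1, the retinaldehyde dehydrogenase gene Aldh1a1 (19:20492583-20643463) and its close paralogue and neighbour Aldh1a7 (19:20692953-20727556) had at least 35 and 94 reads against 0. Near-identical copies can share reads, so these counts are uncertain as single genes. The retinoic acid hydroxylase Cyp26b1 was 14.1-fold lower in the authors' deposited table with at least 671 reads against 47. Of 239 genes of drug metabolism 24 were listed, 7 above 1 and 17 below, and 1 and 7 among the well supported. The 7 included Ces1f, the aryl hydrocarbon receptor target Cyp1a1, the aldehyde oxidase Aox3 and the glucuronosyltransferases Ugt1a6a and Ugt1a5, which share their last exons and so their reads. Ces1f and its neighbour Ces1g, carboxylesterases of 1 cluster, lay on opposite sides, 59.5-fold lower and 20.2 in the authors' deposited table.

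In lipid metabolism the acyl-CoA synthetase gene Acsbg1 had at least 1198 reads against 15 (77.3 in the authors' deposited table), while phospholipid transfer protein, Pltp, had at least 1175 against 31 on the other side (37.3-fold lower in the authors' deposited table). By the authors' deposited table Enpp2, which makes lysophosphatidic acid, was 21.8-fold lower and the lipocalin Apod 10.04-fold lower. Of the glycolysis and hypoxia list, Vegfa and hexokinase Hk2 were above 1 and the pyruvate dehydrogenase kinase Pdk4 below, with at least 479 reads against 44. Of 32 mitosis genes 0 were listed. The S phase list had 7 of 44 members above 1 and 0 below. Of these Mcm6, a subunit of the replicative helicase, had at least 3231 reads against 642 (5.03 in the authors' deposited table). The other 6 were histone genes with least reads of 2 or 3. Among transporters, the water channel gene Aqp1 (6:55336299-55348555) was below 1 with at least 6953 reads against 221 (31.4-fold lower in the authors' deposited table), as was the glutamate carrier gene Slc1a3. Above 1 were the phosphate carrier gene Slc20a1 and the iron exporter gene Slc40a1, with at least 974 reads against 146 and at least 513 against 50. Of 282 ion channel genes 24 were listed, 7 above 1 and 17 below. The 4 well supported ones were all below, led by the T-type calcium channel gene Cacna1g (11:94408391-94474400) with at least 349 reads against 2.

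Of 99 markers of leukocytes, epithelium, endothelium and nerve, 8 were listed (8.08%, beside 4% of all protein-coding genes). The table gives 3 of 32 leukocyte markers: Laptm5 above 1 (at least 31 reads against 0), and Itgam and Cd8a below on at least 4 and 3 reads. It gives 1 of 25 epithelial markers (Krt8, at least 21 against 2), 2 of 19 endothelial markers (Cdh5 and Pecam1, at least 31 and 4 against 0) and 2 of 23 nerve markers, among them Tubb3. Their summed levels cannot be had from ratios, and a marker outside the table may be absent from both libraries or close to the same in both. Further genes known from leukocytes lay above 1 and were picked out after their values were seen: Nckap1l with at least 114 reads against 2, Siglecg with at least 95 against 3, Cd33 with at least 69 against 13, and the T cell kinase Txk with at least 87 against 8. Others known from leukocytes, picked in the same way, lay below 1: Ptpn22 with at least 120 reads against 11, the galectin Lgals9 with at least 489 against 51, and Itgal, Il7r and Bcl11b on at least 6, 12 and 12. A part of other cells in these ratios was not tested.

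Against the other days, 407 of 998 rows (40.8%) were in neither the day 2 nor the day 8 table, 221 above 1 and 186 below. Among the 392 well supported rows this was 91 (23.2%): 62 of 211 above 1 (29.4%) and 29 of 181 below (16.0%). On the same side in all 3 tables were 73 of the 211 (34.6%) and 93 of the 181 (51.4%). Day 8 shared more of them than day 2: 140 of the 211 and 135 of the 181 were on the same side at day 8, against 79 and 110 at day 2. On the upper side the day 2 table starts at a ratio of 3, with 186 rows tied there, and has 89 well supported rows, which limits what it could share. Each day has its own vehicle library, so the tables share no sample.

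**Figure D3:**
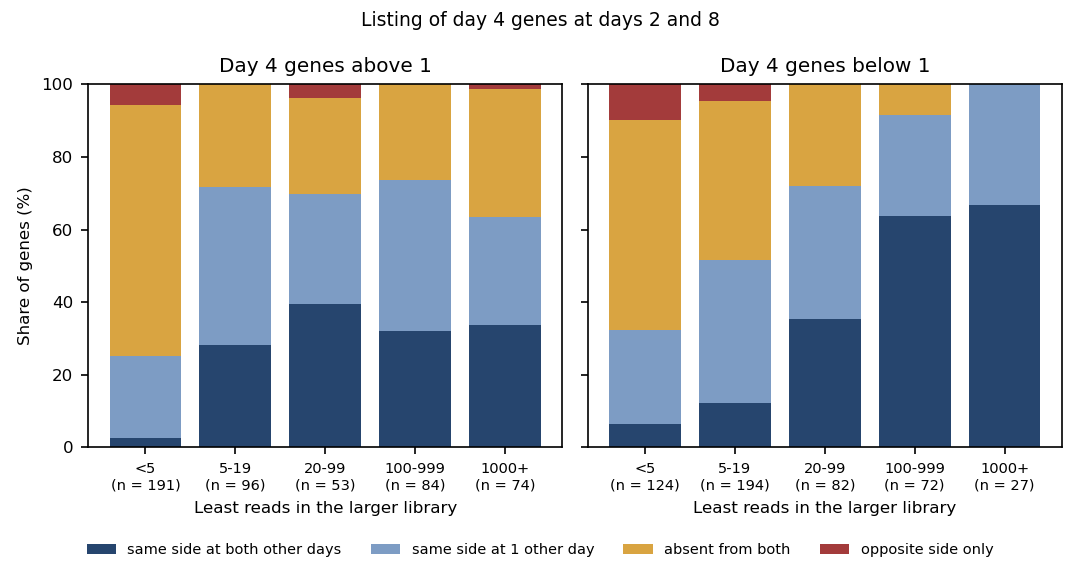
Stacked bars give the share of day 4 genes (%) that were listed on the same side at both other days, at 1 of them, at neither, or only on the opposite side, by the least reads in the larger library, for ratios above 1 (left) and below 1 (right). Genes with at least 1000 reads and absent from both other days number 26 of 74 above 1 and 0 of 27 below.

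Absence from the other days went with closeness to the edge of the table. Of the well supported genes with a ratio from 5 up to 7, 43 of 70 were absent from both other days, against 13 of 43 from 7 to 10, 5 of 46 from 10 to 20 and 1 of 52 from 20 up. Below 1 it was 24 of 71 from 7-fold to 10-fold lower, 4 of 44 from 10-fold to 20-fold and 1 of 66 beyond. A gene near the edge at day 4 needs only a slightly smaller ratio at another day to be left out, so absence does not show that a difference was limited to day 4. For genes on 1 side in all 3 tables with at least 20 reads at each day, day 4 had the ratio farthest from 1 for 42 of 65 above 1, day 8 for 22 and day 2 for 1. Their median ratios were 6.64, 20.7 and 16.3 at days 2, 4 and 8. Below 1 the days were more even, with day 2 farthest for 22, day 4 for 21 and day 8 for 31 of 74 genes, and medians of 18.0-fold, 23.5-fold and 23.8-fold lower. Each day's ratios carry the unknown depths of its own libraries, and the upper side starts at 3 at day 2 but 5 at days 4 and 8. These figures therefore do not rank the days by response.

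The genes listed at day 4 alone were of many kinds. Above 1, the 2 with the highest ratios and over 1000 reads were D8Ertd82e, at least 1688 reads against 124 (13.6 in the authors' deposited table), and Map3k10 (7:27656375-27674630), a kinase upstream of JNK, at least 5155 against 398 (12.9 in the authors' deposited table). Uridine phosphorylase, Upp1, had at least 402 reads against 41, and the growth arrest gene Gadd45a at least 752 against 78. The atypical MAP kinase Mapk6 (9:75386782-75410016) had at least 9225 against 1577 (5.85 in the authors' deposited table), the teneurin Odz4 at least 5400 against 909 and the membrane protein gene Tm4sf1 at least 2424 against 324. The kinase Pim1, the Rac regulator Arhgap22, the glucocorticoid receptor cochaperone Fkbp5 and the sterol enzyme Nsdhl had ratios of 6.54, 6.83, 5.20 and 5.18 in the authors' deposited table. With fewer reads came Gldc, of the glycine cleavage system, at least 45 against 2, the calcium sensor Ncald, at least 36 against 3, and the forkhead gene Foxq1, at least 83 against 10. Hmga2-ps1, a pseudogene copy of Hmga2, was listed too (7.12 in the authors' deposited table), and reads may be shared between the 2.

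Below 1 the day 4 genes absent elsewhere had lower least reads. The highest in the larger library were those of Zfr2 (at least 395 against 51, 7.68-fold lower in the authors' deposited table). Syn3 followed with at least 315 against 40, within the caveat on Timp3 above. The others with known roles included the RNA-binding Celf5 (at least 109 reads against 14), Ikzf2, the cofilin phosphatase Ssh3 (62 against 8), the myelin glycoprotein Omg (54 against 5) and Cttnbp2 (57 against 6). Ccdc152 overlaps the selenoprotein P gene Sepp1, itself 14.2-fold lower in the authors' deposited table, and is uncertain as a separate gene. Tm6sf2 was 22.3-fold lower in the authors' deposited table, the farthest from 1 of these 29, on at least 33 reads against 1. Of the 29, 11 are clone-named or otherwise uncharacterised transcripts.

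**Figure D4:**
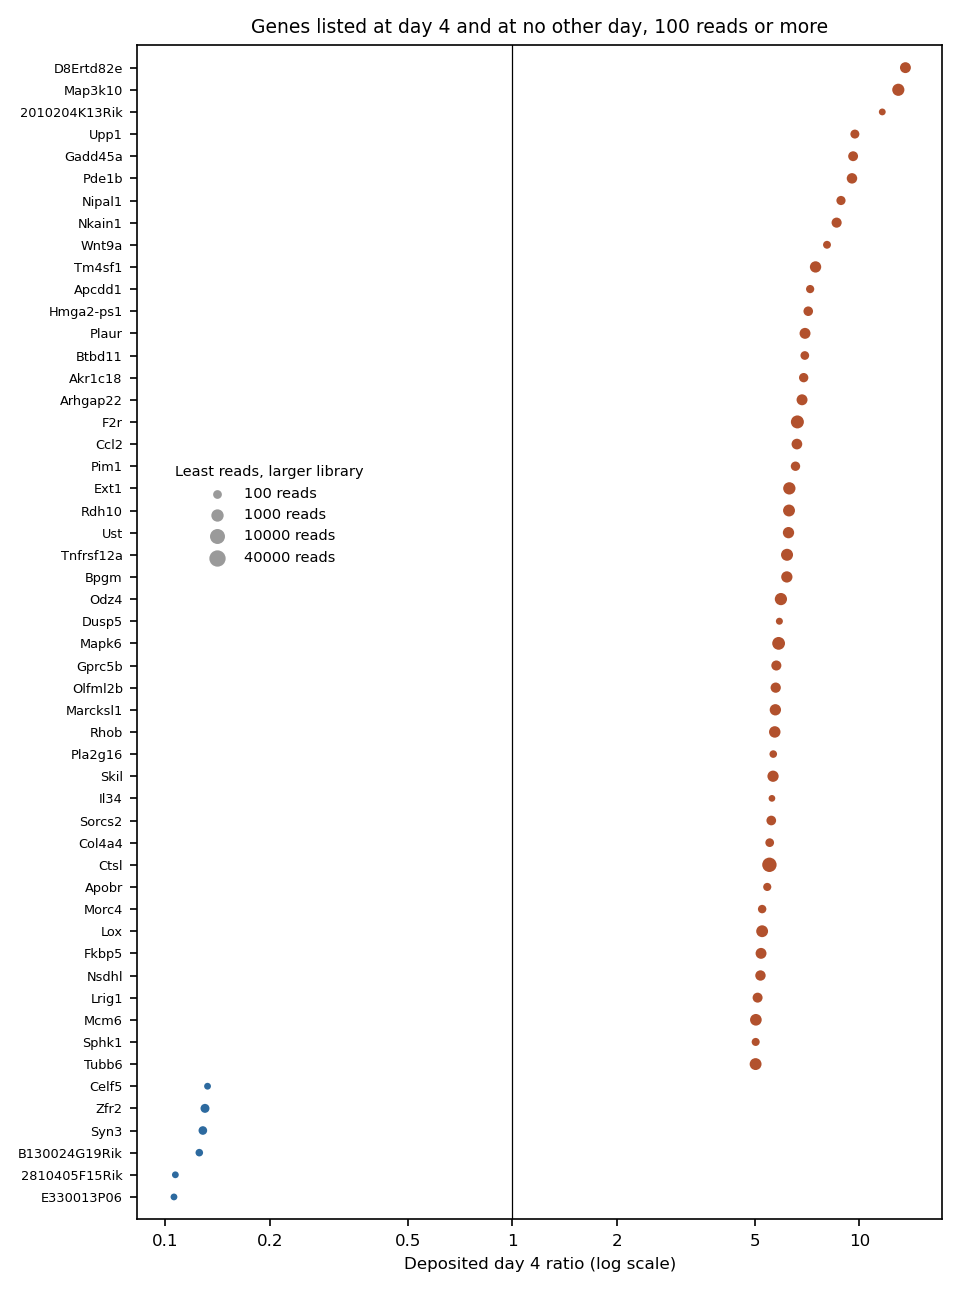
Each point is one of the genes reported here that were listed at day 4 and in neither other table with at least 100 reads in the larger library, at its deposited ratio (log scale), with the point size set by those reads. The genes above 1 run from Tubb6 at 5.02 to D8Ertd82e at 13.6, and the 6 below 1 lie between 7-fold and 10-fold lower.

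Some listed genes were neighbours. Of 875 protein-coding rows, 93 pairs stand next to each other in the RefSeq gene order, 80 of them on the same side, and 19 of 20 pairs of well supported genes. Besides the pairs named above they included Sned1 and Mterfd2, Slc1a3 and Ranbp3l, Nov and Enpp2, Nckap1l and Pde1b, Itga10 and Ankrd35, Mfsd2a and Mycl1, Nipal1 and Txk, Mamstr and Fut2, and Atp6v1g1 with 6330416G13Rik. Atp6v1g1, a subunit of the vacuolar proton pump, had at least 13818 reads against 1674 (8.25 in the authors' deposited table). Some pairs overlap, such as Timp3 and Syn3, Sepp1 and Ccdc152, Col4a4 and Col4a3, and the Ugt1a genes, so their reads may be shared. All rows of the table divide evenly between the sides, and the sides of neighbours were not tested. How many neighbours an equal number of rows drawn from the genome would give was not tested.

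The table also lists 22 miRNA genes, 4 above 1 and 18 below, each with least reads of 14 or fewer in the larger library. The miRNA libraries of the same day, 232107 reads for vehicle and 459795 for TGFβ, allowed a comparison whose direction the labels give. With trimmed mean of M-values (TMM) scaling and a minimum of 10 reads in the 2 libraries together, 19 mature miRNAs of these genes could be compared. For genes above 1, both of 2 mature miRNAs were higher with TGFβ, and 1 of 2 with scaling by total reads. For genes below 1, 7 were lower and 10 higher with TMM, and 9 lower and 8 higher by total reads. Mature miRNA and a few mRNA-library reads of its gene thus often differed in side. These counts include miRNAs whose 95% counting interval holds 1, such as miR-9-5p (0.99 to 1.71) and miR-98-5p (0.58 to 1.49) with TMM. The 4 mature miRNAs below are among those whose 95% counting intervals left out 1 under both scalings. They are shown from RefSeq (GRCm38.p6) with the seed, bases 2 to 8, in capitals. No 2 of them share a seed.
miR-155-5p: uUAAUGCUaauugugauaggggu
miR-92b-3p: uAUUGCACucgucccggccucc
miR-218-5p: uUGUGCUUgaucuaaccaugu
miR-677-5p: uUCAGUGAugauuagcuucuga
miR-155-5p, known from inflammation, went from 47 reads with vehicle to 252 with TGFβ, a scaled ratio of 3.76 (2.75 to 5.25), and Mir155 (ratio 5 in the authors' deposited table) is above 1. miR-92b-3p went from 910 to 359 reads, 3.61-fold lower, and miR-218-5p from 904 to 426, 3.02-fold lower, and Mir92b and Mir218-2 are below 1. miR-677-5p went from 42 to 196 reads, a ratio of 3.27 (2.34 to 4.69), although Mir677 is below 1 (9.67-fold lower in the authors' deposited table, on at least 14 reads).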

How the data were processed

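mRNA and miRNA of AKR-2B colonies were sequenced, with 1 library per condition and day. For mRNA the authors deposited 1 ratio (fold change) per gene and day, with no counts per library. For miRNA they deposited raw counts of reads per mature miRNA. edgeR 3.9 and mm10 are named, with no role, per the submitters' processing notes; the aligner is not given in the sources used here. Library totals for mRNA are therefore unknown, and a difference in depth stays in every ratio.

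Each ratio was turned into the simplest ratio of whole numbers that gives its printed digits, with the smaller number at most 30000. On simulated data for the 997 day 4 genes, counts plus 0.5 without scaling gave odd numbers over odd numbers in 100.0%, and scaled counts in 41.83%. The first share follows from arithmetic and only checks the code, and the second rests on a single arbitrary scaling factor. A larger number of 41 means at least 20 reads. Symbols were matched to RefSeq (GRCm38.p6). miRNA counts were scaled with TMM factors in edgeR 4.0.16 (R 4.3.3), and ratios carry exact conditional binomial 95% intervals, which cover counting error only. Other steps used Python 3.11.15, numpy 2.4.6, pandas 2.3.3 and scipy 1.17.1.

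The genes, the 51 lists and the naming rule were chosen with earlier results of these data known. The rule named the 10 ratios farthest from 1 on each side with at least 20 reads, the same among genes listed at day 4 alone, the 15 with most reads, up to 8 members per list and side by reads, the 5 nearest 1, all listed TGFβ targets, and genes on opposite sides at 2 days. Genes outside it that the text gives were named after their values were seen. One list pattern that took Sepp1 for a selectin was corrected after the data were seen, and the counting intervals were added then too. Alternatives changed the least reads, the added count, the scaling and the matching of symbols. Some genes of the table are counted but not reported here by name.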

Additional observations from a re-analysis of the deposited data

Results flagged for a closer look

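Of 35 genes listed on opposite sides of 1 at day 4 and another day, 14 were above and 21 below 1 at day 4, and 4 had at least 20 reads at 1 of the days. With 1 library per condition and day, none of these differences was tested. Tmem158, a membrane protein gene known from Ras-induced senescence (9:123259057-123260789), had a ratio of 74.9 at day 4 in the authors' deposited table, with at least 11267 reads against 150. At day 8 it was 85.6-fold lower in the authors' deposited table, with at least 9716 reads against 113. It was the only one of the 4 with at least 20 reads at both days and at least 1 read in every library. The noncoding gene Gm10536 stood at 55 at day 4 (at least 27 reads against 0) and was 83-fold lower at day 2 (at least 41 against 0) in the authors' deposited table. The T-box factor gene Tbx2 stood at 16.6 at day 4 (at least 74 reads against 4) and was 13-fold lower at day 8 on at least 6 reads, in the authors' deposited table. The endothelial lipase gene Lipg stood at 5 at day 4 on at least 2 reads and was 43.8-fold lower at day 8 (at least 109 against 2) in the authors' deposited table.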

How the results depend on the processing

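The counts of genes rest on the reads asked for. Of 499 above 1, 251 had at least 10 reads, 211 at least 20 and 183 at least 50, and 225 were left without ratios of the 0-read form. Of 499 below 1 the counts were 253, 181, 132 and 201. Genes absent from the other days fell from 221 above 1 to 71, 62, 51 and 76, and from 186 below 1 to 57, 29, 16 and 47 under the same settings. Resolving synonyms left them at 221 and 186, and asking only that the same side be missing gave 234 and 202. With 2 in place of 0.5 added to the least reads, the median ratio of the named genes went from 8.68 to 6 above 1 and from 0.0909 to 0.142 below 1. Divided by 0.845, the geometric mean of the table's inner edges, the medians were 10.3 and 0.108. Neither change could move a listed ratio across 1, so they do not check the sides. Lists with more members above 1 than below numbered 30 in the whole table and 26 to 30 under the settings on reads. With depth unknown, a ratio has no scale beyond its table, and for the 315 rows with least reads under 5 the counting interval holds 1.

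No paired analysis was possible because each condition and day has 1 library and the labels carry no replicate numbers. With 1 library a group, none was left out in turn.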
